A study of Mus musculus with 12 samples.

Results

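Scavenger receptors are surface proteins with which macrophages bind and take up modified lipoproteins, glycoproteins, haemoglobin complexes and cell debris. The genes described here are Msr1, Marco, Cd36, Mrc1, Cd163, Stab1, Scarb1, Colec12 and the related secreted protein gene Cd5l, 9 of the 55401 genes in the expression table. They were chosen by their gene symbols from this receptor family, after the fall of macrophage genes, Msr1 among them, in tumors given an antibody to CSF1R, the receptor for colony stimulating factor 1, had been seen in these data. The comparisons with that antibody group are therefore a description of the members. Their calls from the fit over all genes are stated there without a p-value of a member, as no independent evidence.

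The family is grouped by structure and cargo rather than by sequence. Class A receptors (Msr1, Marco and Colec12) are trimers with a collagen-like stalk, and class B receptors (Cd36 and Scarb1) carry fatty acids and lipoprotein lipid across the membrane. The mannose receptor Mrc1, the haemoglobin-haptoglobin receptor Cd163 and the stabilin Stab1 are widely used to mark alternatively activated or tissue-resident macrophages, and several members are also made outside macrophages, as Cd36 in fat cells and capillaries and Scarb1 in hormone-producing cells and liver.

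The libraries came from bulk RNA of orthotopic breast tumors of 4T1, a mouse mammary carcinoma line, grown in young adult Balb/c mice. The 4 groups of 3 tumors received a control isotype protein (IgG1-Fc, called control), recombinant IL-10-Fc, an antibody against CSF1R (called aCSF1R) or BF10, a fusion protein in which an antibody against CSF1R carries human interleukin-10. Signals through CSF1R are what most tissue and tumor macrophages need for survival, and interleukin-10 is a cytokine that acts on macrophages and T cells. Treatment began at a tumor volume of 100 mm3, and the sample labels state a total of 6 doses. Fewer doses are stated in the methods of the study. All tumors carried the same cell line, and 1 library was made from each. The labels do not say that the 3 libraries of a group came from separate animals, so p-values measure the spread between these libraries. Libraries are named by the replicate numbers of their titles.

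The libraries fell into 2 sets that cut across the treatments. The deposited values were FPKM, read fragments scaled to transcript length and library size. Their sum was 782919 to 921581 in control replicates 4 and 7, IL-10-Fc replicate 7, BF10 replicate 6 and aCSF1R replicate 8, which are called higher-sum libraries. In the remaining 7, the lower-sum libraries, it was 609695 to 648413. The mitochondrial share of these sums was 5.90% to 9.26% for the former set and 3.14% to 3.97% for the latter. Relative depth, read from the smallest steps between values, was 0.908 to 1.07 of the median library. Each FPKM value was rescaled to TPM (each library brought to the same total), which is proportional to transcript number and allows levels of different genes to be compared. Of the 9 genes, 7 reached 1 TPM in at least 3 libraries and were tested, all but Marco and Cd5l. A gene is called changed at a limma adjusted p below 0.05 over 15504 tested genes with a change of at least 1.5-fold.

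Msr1 was the most abundant of the 9 genes in all 3 control tumors, in all 3 IL-10-Fc tumors and in 2 of 3 BF10 tumors, where it made up 28.3% to 50.8% of their summed TPM. In the aCSF1R tumors its share was 4.10% to 17.8%, and Scarb1 was the most abundant of the 9 genes in each of them. In BF10 replicate 3 the highest member was Stab1, with 31.3% of the sum. The summed TPM of the 9 genes was 291 to 324 in control, 306 to 341 in IL-10-Fc, 302 to 481 in BF10 and 49.1 to 185 in aCSF1R tumors.

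**Figure D1:**
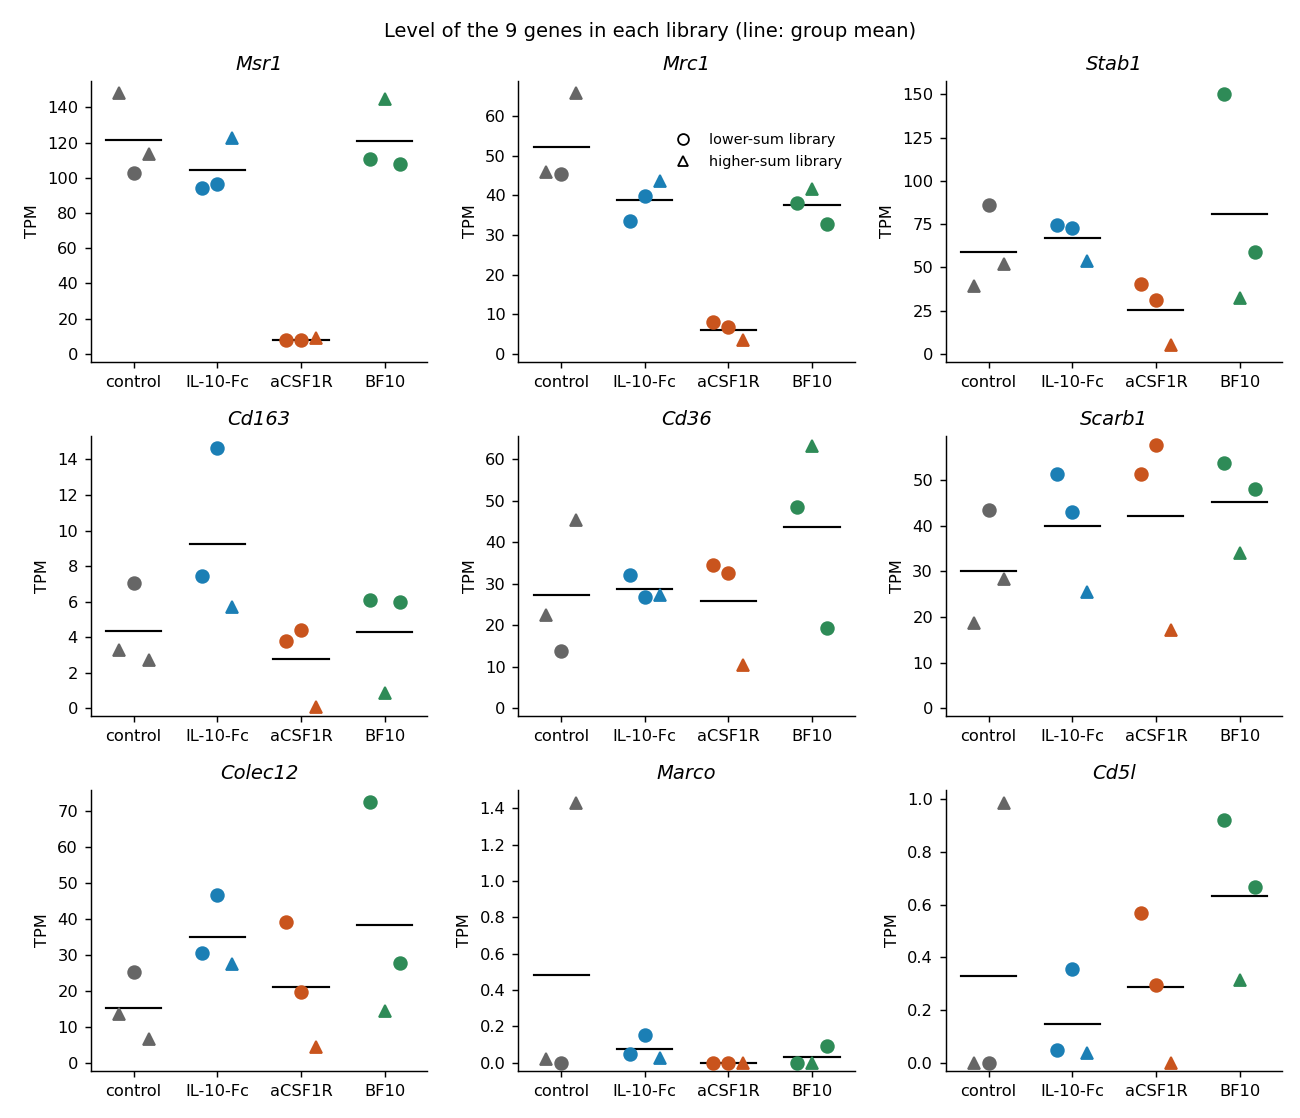
Level of each of the 9 genes in TPM (vertical axis, linear) in the 12 libraries, grouped by treatment (horizontal axis). Each point is 1 library, triangles are higher-sum libraries, circles are lower-sum libraries, and the line is the mean of 3 libraries. The aCSF1R points of Msr1 (7.59 to 8.75 TPM) and Mrc1 (3.40 to 7.98 TPM) lie below every point of the other groups. Those of Cd36, Scarb1 and Colec12 overlap with the other groups. For these genes aCSF1R replicate 8 is the lowest of the 12 libraries (10.5, 17.2 and 4.24 TPM). For Scarb1, aCSF1R replicate 6 is the highest (57.8 TPM).

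Msr1 (chromosome 8, 39581685 to 39642673, minus strand, build GRCm38), the type A receptor for acetylated and oxidised lipoproteins, set the aCSF1R tumors apart from the rest. Its level was 147.9, 102.8 and 113.6 TPM in control replicates 4, 5 and 7. It was 94.4, 96.6 and 122.7 TPM in IL-10-Fc replicates 2, 4 and 7, and 110.5, 144.7 and 108.1 TPM in BF10 replicates 3, 6 and 7. In aCSF1R replicates 4, 6 and 8 it was 7.59, 7.61 and 8.75 TPM. The ranges of the control, IL-10-Fc and BF10 groups overlapped, and all 9 of their libraries lay above the aCSF1R libraries. In every group the highest value came from a higher-sum library.

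The mean Msr1 level was 121.4 ± 23.5 TPM (SD, n = 3) in control and 7.98 ± 0.661 TPM (SD, n = 3) in aCSF1R tumors, a ratio of 15.2. On the log2(TPM + 1) scale Msr1 fell by 3.75 (SE 0.22), the 8th lowest change of all tested genes. The median of all tested genes was 0.24 in the same comparison, so relative to it Msr1 stood at -3.99. The library sets were not balanced here, with 2 higher-sum libraries in control and 1 in aCSF1R. With the library set as a term Msr1 fell by 3.65 (SE 0.13), the median was 0.007, and Msr1 stood at -3.66 relative to it. Against aCSF1R, Msr1 was higher by 3.75 (SE 0.22) in BF10 and by 3.55 (SE 0.22) in IL-10-Fc tumors. All 3 of these comparisons use the same aCSF1R libraries. In bulk tumor RNA, fewer macrophages and less Msr1 RNA per macrophage cannot be told apart.

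Between the other groups Msr1 differed by less than the spread of the libraries. The log2 change of BF10 against control was 0.00045 (95% confidence interval -0.49 to 0.49, limma adjusted p = 0.999), and that of IL-10-Fc against control was -0.21 (-0.69 to 0.28, limma adjusted p = 0.738). The sign of the first value turned when the TPM were scaled by the median of ratios (-0.37) and when FPKM were not rescaled (-0.19). BF10 and IL-10-Fc differed by 0.21 (-0.28 to 0.69, limma adjusted p = 1).

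Mrc1, the mannose receptor of macrophages and some endothelia, was also lowest in the aCSF1R tumors. Its level was 45.9, 45.4 and 65.8 TPM in control replicates 4, 5 and 7, and 33.5, 39.9 and 43.6 TPM in IL-10-Fc replicates 2, 4 and 7. It was 38.2, 41.5 and 32.9 TPM in BF10 replicates 3, 6 and 7, and 7.98, 6.82 and 3.40 TPM in aCSF1R replicates 4, 6 and 8. The 3 aCSF1R libraries were the lowest of the 12. Every control library also lay above every IL-10-Fc and every BF10 library, which overlapped with each other. The share of all tested genes whose groups separated in this way was not counted, here or for the other members.

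The mean of Mrc1 was 52.4 ± 11.6 TPM (SD, n = 3) in control and 6.07 ± 2.38 TPM (SD, n = 3) in aCSF1R tumors, a ratio of 8.63. On the log2(TPM + 1) scale Mrc1 fell by 2.96 (SE 0.30), and it exceeded the aCSF1R level by 2.50 (SE 0.30) in BF10 and by 2.56 (SE 0.30) in IL-10-Fc tumors. With the library set as a term the fall of Mrc1 was 2.97 (SE 0.27). Although the groups did not overlap, the lower Mrc1 level in BF10 than in control (log2 -0.46, 95% confidence interval -1.11 to 0.20) did not pass the test (limma adjusted p = 0.788). The same held for IL-10-Fc against control (log2 -0.40, -1.06 to 0.26, limma adjusted p = 0.738).

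The RefSeq promoters of Mrc1, a gene called in the aCSF1R comparisons, and of Cd36, a macrophage gene that was not, are shown for their letters around the start site. Capitals mark GAGGAA or its reverse complement TTCCTC, the core bound by the myeloid factor PU.1 (gene Spi1). The Mrc1 window is chr2:14229164-14229463 on the plus strand and the Cd36 window is chr5:17835847-17836146 on the minus strand, both of GRCm38.p6 and written 5′ to 3′.
Mrc1: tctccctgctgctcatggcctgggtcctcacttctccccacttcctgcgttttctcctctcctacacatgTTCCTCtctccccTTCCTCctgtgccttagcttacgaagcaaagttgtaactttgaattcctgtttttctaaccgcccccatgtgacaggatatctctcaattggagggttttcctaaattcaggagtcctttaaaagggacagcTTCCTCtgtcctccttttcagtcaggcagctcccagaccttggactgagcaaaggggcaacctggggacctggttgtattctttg
Cd36: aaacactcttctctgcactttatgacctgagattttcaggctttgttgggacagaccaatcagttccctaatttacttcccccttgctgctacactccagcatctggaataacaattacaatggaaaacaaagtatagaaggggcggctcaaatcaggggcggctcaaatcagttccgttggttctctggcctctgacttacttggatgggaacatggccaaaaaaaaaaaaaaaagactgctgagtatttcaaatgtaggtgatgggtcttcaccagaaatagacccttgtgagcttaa

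The Mrc1 window held 3 of these cores, all as TTCCTC, beginning 180, 167 and 35 bases before the start. The Cd36 window held 0, with 1 nuclear receptor element AGGTCA (as TGACCT, 228 bases before the start) and 1 MAF-type element TGCTGA (11 bases before the start). Of the other 4 members with a promoter in the table, Marco, Stab1 and Cd5l had 1 GAGGAA core each and Cd163 had 0. Among all 32851 promoters of the same 300 bases, counting both strands, 28.28% held a GAGGAA core, 16.26% an AGGTCA and 19.48% a TGCTGA. The letters belong to the reference strain, not to the Balb/c mice, and the start of Cd36 used by RefSeq lies inside the span of the gene in the GENCODE annotation. Msr1, Scarb1 and Colec12 were not in the table.

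Stab1 (chromosome 14, 31139013 to 31168641, minus strand), a scavenger of oxidised lipoprotein and matrix fragments found on macrophages and sinusoidal endothelium, was lower in aCSF1R tumors within each library set. Its level was 39.3, 86.0 and 51.8 TPM in control replicates 4, 5 and 7, and 40.4, 31.1 and 4.99 TPM in aCSF1R replicates 4, 6 and 8. In IL-10-Fc replicates 2, 4 and 7 it was 74.8, 73.0 and 53.5 TPM, and in BF10 replicates 3, 6 and 7 it was 150.5, 32.5 and 59.0 TPM. The control and aCSF1R groups overlapped narrowly, yet among lower-sum libraries and among higher-sum libraries the aCSF1R values were below the control values.

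The log2 change of Stab1 between aCSF1R and control was -1.51 (SE 0.71) and was not called. A fit with a term for the library set gave -1.97 (SE 0.44) and was called, while the fit with the replicate number as a block gave -0.02 and no call. The median of all tested genes was 0.93 in the block fit, against 0.24 in the fit with 1 mean per group. The block value of Stab1 therefore still lay below that of the median gene. Without aCSF1R replicate 8 the change was -0.64. Stab1 has exons that overlap those of Nt5dc2 on the opposite strand, and how strand was used in counting is not stated, so its values may hold reads of that gene.

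Cd163, the receptor that clears haemoglobin-haptoglobin complexes, was the least abundant of the 7 tested members. It measured 3.29, 7.07 and 2.74 TPM in control replicates 4, 5 and 7, and 3.77, 4.43 and 0.0868 TPM in aCSF1R replicates 4, 6 and 8. It measured 7.44, 14.6 and 5.68 TPM in IL-10-Fc replicates 2, 4 and 7, and 6.07, 0.868 and 5.99 TPM in BF10 replicates 3, 6 and 7. The 3 IL-10-Fc libraries lay above all aCSF1R libraries, while the other groups overlapped.

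The log2 change of Cd163 between aCSF1R and control was -0.73 (SE 0.70), and a term for the library set moved it to -1.23 (SE 0.34), neither of them called. IL-10-Fc exceeded aCSF1R by 1.66 (SE 0.70), which was not called, and with the set term by the same 1.66 (SE 0.33), which was. Between IL-10-Fc and control the change was 0.92 (95% confidence interval -0.63 to 2.48, limma adjusted p = 0.738). Between BF10 and IL-10-Fc it was -1.08 (-2.64 to 0.47, limma adjusted p = 1), and without BF10 replicate 6 it was -0.45. With the set term it was also -1.08 (-1.80 to -0.36) and was not called. Over all alternative settings it ran from -1.84 to -0.45.

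Cd36 (chromosome 5, 17781690 to 17888801, minus strand), a fatty acid transporter and receptor for oxidised lipoprotein, overlapped between aCSF1R and every other group. It measured 22.5, 13.7 and 45.4 TPM in control replicates 4, 5 and 7, and 34.4, 32.4 and 10.5 TPM in aCSF1R replicates 4, 6 and 8. It measured 32.1, 26.8 and 27.3 TPM in IL-10-Fc replicates 2, 4 and 7, and 48.3, 63.0 and 19.4 TPM in BF10 replicates 3, 6 and 7. All pairs of groups overlapped, and the coefficient of variation was 60.2% in control, 51.5% in aCSF1R and 51.0% in BF10 against 10.2% in IL-10-Fc tumors.

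The log2 change of Cd36 between aCSF1R and control was -0.08 (SE 0.56). It was 1.23 among the lower-sum libraries (2 aCSF1R and 1 control) and -1.52 among the higher-sum ones (1 aCSF1R and 2 control). Each of these values rests on 1 library in a group, so a dependence on the library set is not shown. BF10 against control gave 0.67 (95% confidence interval -0.58 to 1.91, limma adjusted p = 0.788). The summed TPM of 5 adipocyte markers (Adipoq, Plin1, Cidec, Lep and Cfd) was lowest, at 1.12, in aCSF1R replicate 8, where Cd36 was also lowest of the 12 libraries. The highest sum, 331, was in aCSF1R replicate 6, where Cd36 was 32.4 TPM. Cd36 was highest in BF10 replicate 6, at a sum of 202. The adipocyte sum ran from 1.92 to 102.7 in control, 1.12 to 331 in aCSF1R, 8.03 to 156 in IL-10-Fc and 36.0 to 202 in BF10 tumors. None of the 5 was at 0 in every library of a group, and their part in the Cd36 values was not tested.

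Scarb1, the high-density lipoprotein receptor, was the tested member with the smallest ratio between its highest and lowest group mean. It measured 18.7, 43.5 and 28.2 TPM in control replicates 4, 5 and 7, and 51.3, 57.8 and 17.2 TPM in aCSF1R replicates 4, 6 and 8. It measured 51.3, 42.9 and 25.6 TPM in IL-10-Fc replicates 2, 4 and 7, and 53.8, 33.9 and 48.1 TPM in BF10 replicates 3, 6 and 7. In each group the higher-sum libraries held the lowest values. The log2 change of aCSF1R against control was 0.37 (SE 0.48), and 0.05 (SE 0.23) with the set term.

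Colec12, a class A receptor with a lectin domain that is known from vascular endothelium and stroma, ranged from 4.24 to 72.5 TPM over the 12 libraries. It measured 13.5, 25.2 and 6.65 TPM in control replicates 4, 5 and 7, and 39.0, 19.7 and 4.24 TPM in aCSF1R replicates 4, 6 and 8. It measured 30.5, 46.8 and 27.3 TPM in IL-10-Fc replicates 2, 4 and 7, and 72.5, 14.5 and 27.6 TPM in BF10 replicates 3, 6 and 7. All 3 IL-10-Fc libraries lay above all control libraries, and the remaining groups overlapped with control.

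The log2 change of Colec12 against control was 1.29 (95% confidence interval -0.40 to 2.99, limma adjusted p = 0.738) in IL-10-Fc, 1.16 (-0.53 to 2.86, limma adjusted p = 0.788) in BF10 and 0.20 (SE 0.77) in aCSF1R tumors. With the set term these became 0.81, 0.68 and -0.29, and scaling by the median of ratios also turned the sign of the aCSF1R value (-0.05). The 7 fibroblast markers summed to 944 to 3097 TPM in control and 2980 to 5971 TPM in IL-10-Fc tumors, and to 9266 TPM in BF10 replicate 3, where Colec12 was highest. Endothelial markers (6 genes) summed to 148 TPM in that library, where Stab1 was also highest, and to 33.9 TPM in aCSF1R replicate 8, where Stab1 and Colec12 were lowest. No marker of these lists was at 0 in every library of a group, and their part in the Stab1 and Colec12 values was not tested.

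**Figure D2:**
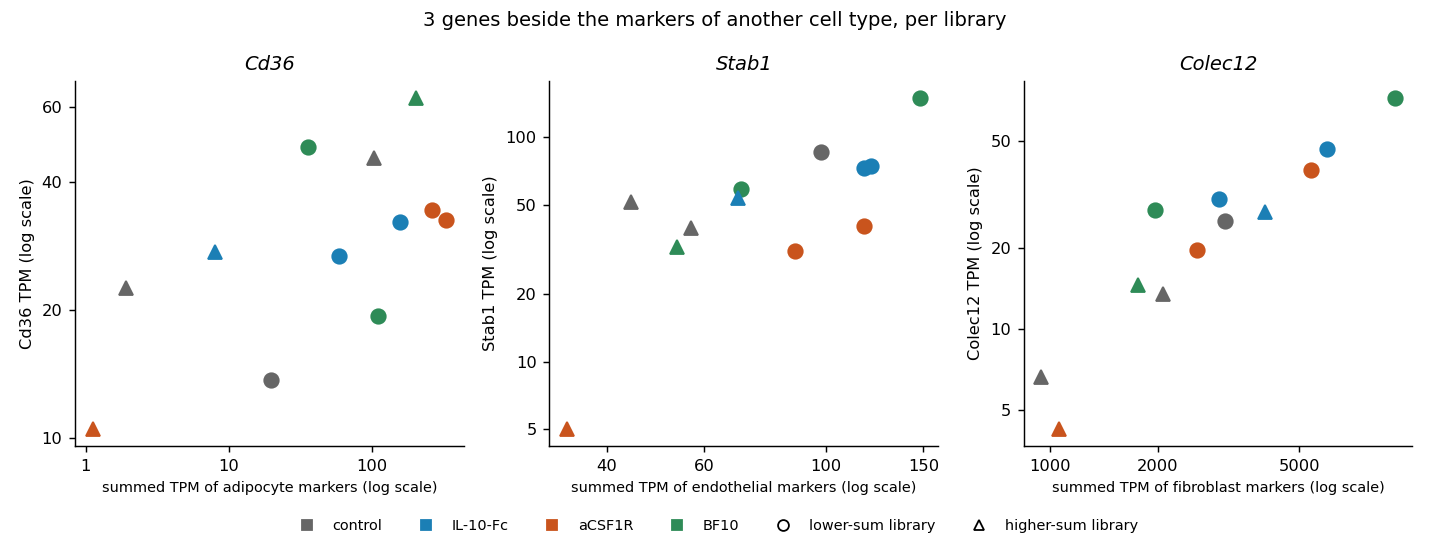
Levels of Cd36, Stab1 and Colec12 in TPM (vertical axes, log scale) against the summed TPM of adipocyte, endothelial and fibroblast markers (horizontal axes, log scale), with 1 point per library, coloured by group and shaped by library set. Colec12 ran from 4.24 to 72.5 TPM along with a fibroblast sum of 944 to 9266 TPM, and aCSF1R replicate 8 held the lowest value of all 3 genes.

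Marco, the class A receptor of marginal zone and alveolar macrophages, and Cd5l, a lipid-regulating protein that tissue macrophages secrete, were close to the lower limit of the data. Marco was listed at 0 in all 3 aCSF1R libraries, in 2 of 3 BF10 libraries and in control replicate 5, and at most at 0.154 TPM elsewhere apart from control replicate 7 (1.43 TPM). Cd5l was listed at 0 in control replicates 4 and 5 and in aCSF1R replicate 8. Its highest value was 0.987 TPM in control replicate 7, followed by 0.923 TPM in BF10 replicate 3. No test was run on either gene.

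Across the members, the library sets divided the family. With the groups held equal, higher-sum libraries differed from lower-sum ones by -1.48 (SE 0.24) for Cd163, -1.45 (SE 0.35) for Colec12, -1.37 (SE 0.32) for Stab1 and -0.98 (SE 0.17) for Scarb1 on the log2(TPM + 1) scale. The corresponding values were -0.05 (SE 0.20) for Mrc1, 0.12 (SE 0.41) for Cd36 and 0.32 (SE 0.10) for Msr1, and the median over all tested genes was -0.68. For Cd163, Stab1, Scarb1 and Colec12, each higher-sum library lay below each lower-sum library of its own group. The longest coding transcript is 8024 bases for Colec12, 7999 for Stab1, 4443 for Cd163 and 2521 for Scarb1. It is 5374 bases for Mrc1, 3636 for Msr1 and 3399 for Cd36. A part of transcript length in the set differences was not tested.

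Counted over the comparisons, 2 of the 9 members, Msr1 and Mrc1, were called lower in aCSF1R than in control, while 0.568% of all tested genes were. Against aCSF1R the same 2 genes were called higher in BF10 (0.735% of all tested genes) and in IL-10-Fc tumors (0.542%). These comparisons were in view when the genes were chosen, so the shares stand beside the counts as a description. With the library set as a term, 3 members were called lower in aCSF1R than in control (Msr1, Mrc1 and Stab1, with 1.93% of all genes), 2 were called higher in BF10 (2.77%) and 3 in IL-10-Fc tumors (Msr1, Mrc1 and Cd163, with 2.12%).

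Of the members, limma called 0 between BF10 and control (0% of all tested genes), 0 between IL-10-Fc and control (0.00645%) and 0 between BF10 and IL-10-Fc (0%). At an unadjusted p below 0.05 in the fit with 1 mean per group, the number of members was also 0 in each of these 3 comparisons. Of all tested genes 234, 224 and 42 passed that limit. With the set term Cd163 passed it between BF10 and IL-10-Fc (limma unadjusted p = 0.00696), as did 141 of all tested genes. The log2 changes ran from -0.46 to 1.16 for BF10 against control, and from -0.40 to 1.29 for IL-10-Fc against control. The median member stood at 0.24 in both, near the median of all genes of 0.32 and 0.35. Intervals reached as far as 2.99 for Colec12 in IL-10-Fc against control, so differences of several fold were not detectable for the more variable members.

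**Figure D3:**
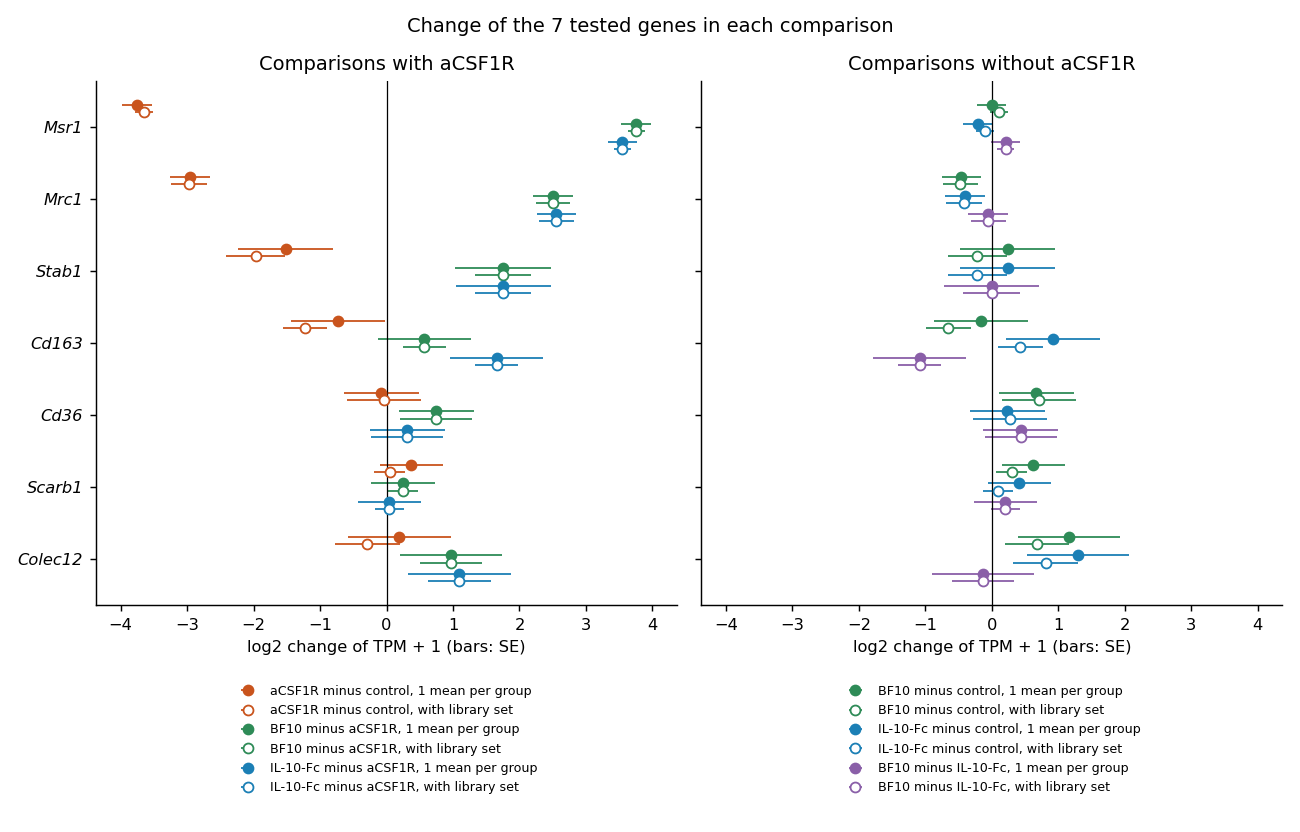
Log2 change of TPM + 1 (horizontal axis) of the 7 tested genes (vertical axis) in comparisons that include aCSF1R (left) and in those that do not (right). Filled points come from the fit with 1 mean per group, open points from the fit with the library set as a term, and bars are SE. Msr1 and Mrc1 lie at -3.75 and -2.96 for aCSF1R minus control, and no gene of the right panel was called in either fit.

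Leaving out each of the 12 libraries in turn left Msr1 and Mrc1 called in all 3 aCSF1R comparisons. The fall of Msr1 then ranged from -3.86 to -3.60 and that of Mrc1 from -3.16 to -2.65. Within the lower-sum libraries alone the changes were -3.59 for Msr1 and -2.47 for Mrc1, and within the higher-sum libraries they were -3.74 and -3.67. Fitting only the 2 groups compared ended the call of Mrc1 in all 3 comparisons and that of Msr1 in BF10 against aCSF1R, and with the replicate number as a block neither gene was called in any of them.

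At -3.75 and -2.96, the changes of Msr1 and Mrc1 lay within the wide range of the macrophage markers, from -4.05 (C1qc) to -0.41 (Mertk). Of 10 macrophage markers 8 were called lower in aCSF1R than in control tumors (Adgre1, Aif1, Fcgr1, C1qa, C1qb, C1qc, Lyz2 and Tyrobp), with a list median of -3.22 against 0.24 for all genes. The complement gene C1qc fell by 4.05 (SE 0.31), from 638 ± 214 to 37.2 ± 11.3 TPM (SD, n = 3 each), and Fcgr1, the high-affinity IgG receptor, fell by 3.01 (SE 0.27). Smaller falls among the called markers were 2.60 (SE 0.38) for Tyrobp and 2.05 (SE 0.39) for Adgre1. The antibody's own target, Csf1r, had a change of -2.21 (SE 0.91), and Mertk one of -0.41 (SE 0.66), neither of them called. With the library set as a term 9 of the 10 markers were called lower (1.93% of all tested genes), Csf1r among them and Mertk not. The summed TPM of the 10 markers was 3829 to 6111 in control, 3172 to 3860 in IL-10-Fc, 3047 to 4644 in BF10 and 369 to 563 in aCSF1R tumors.

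Of 19 other scavenger receptors 15 were tested, and limma called 0 in aCSF1R against control, where 0.568% of all tested genes were called lower. An unadjusted p below 0.05 was reached by 5 of them and by 537 of all 15504 tested genes, and the list median was 0.15. The 2 most abundant, the endocytic receptor Lrp1 (163 ± 133 TPM in control, 265 ± 189 TPM in aCSF1R, SD, n = 3) and the hyaluronan receptor Cd44 (112 ± 81.2 and 207 ± 117 TPM), had changes of 0.51 and 0.88. Cxcl16, the scavenger of oxidised lipoprotein that is also a chemokine, was called higher against aCSF1R in BF10 (log2 1.61) and in IL-10-Fc tumors (log2 1.46). It measured 47.1 ± 17.1 TPM in aCSF1R and 116 ± 28.3 TPM in control (SD, n = 3). With the library set as a term, Cd68, Clec7a and Cxcl16 were called lower in aCSF1R than in control, genes named after their values were seen.

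Genes that handle what these receptors take up are set beside all tested genes. Between aCSF1R and control limma called 0.568% of those lower, and 537 of 15504 had an unadjusted p below 0.05. Of 13 lipid handling genes limma called 0 between aCSF1R and control, with 0 at an unadjusted p below 0.05. The 2 most abundant were Apoe, the lipid carrier of macrophages, with a change of -1.96 (SE 0.90), and the sterol transporter Npc2, with a change of 0.32. Of 9 haem and iron genes limma called 0, with 1 at an unadjusted p below 0.05, and the ferritin chains Fth1 and Ftl1 had changes of 0.42 and 0.04. With the set term Apoe and the transferrin gene Trf were called lower, again named after their values were seen.

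Among 8 myeloid transcription factors Tfec, a factor of the MITF family that is active in macrophages, was called lower in aCSF1R than in control, at 1.02 ± 0.0367 against 8.25 ± 1.17 TPM (SD, n = 3), a log2 change of -2.18. Spi1 changed by -1.87 (SE 0.44) and was not called in that comparison, but was called higher in BF10 than in aCSF1R (log2 2.62). Against aCSF1R, Tfec was called higher in BF10 (log2 1.75) and in IL-10-Fc tumors (log2 1.79). With the set term Maf, Spi1 and Tfec were called in all 3 aCSF1R comparisons, Maf named after its values were seen.

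**Figure D4:**
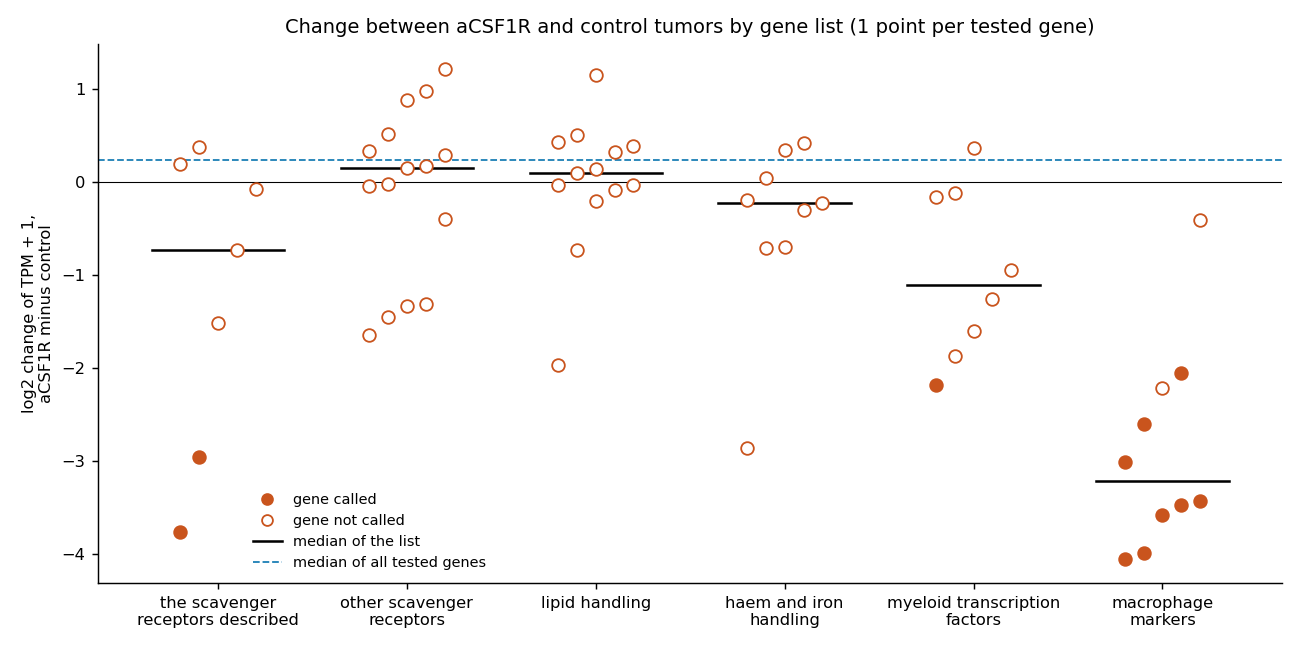
Log2 change of TPM + 1 between aCSF1R and control (vertical axis) of each tested gene in 6 gene lists (horizontal axis). Filled points are called genes, black lines are list medians and the dashed line is the median of all tested genes (0.24). The list medians are -0.73 for the scavenger receptors described, 0.15 for the other scavenger receptors and -3.22 for the macrophage markers.

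Each member had its own nearest genes over the 12 libraries, by Pearson's r of log2(TPM + 1), given as a description because the libraries share the sets and the aCSF1R group. Msr1 lay nearest to Lair1 (r = 0.988), Klra2 (r = 0.986) and Fcgr3 (r = 0.986), which encode leukocyte surface receptors. Mrc1 lay nearest to C1qa (r = 0.989), Aif1 (r = 0.986) and C1qc (r = 0.983), which are macrophage markers. Cd36 lay nearest to Fabp4 (r = 0.902), the immunoglobulin segment Ighv1-4 (r = 0.863) and Pparg (r = 0.844), of which Fabp4 and Pparg are used by fat cells, endothelium and lipid-laden macrophages.

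Stab1 lay nearest to Ccl9 (r = 0.982), Apoe (r = 0.974) and Amdhd2 (r = 0.974). Colec12 lay nearest to Tpm2 (r = 0.991), Rftn2 (r = 0.989) and Dse (r = 0.988), of which Tpm2 encodes a muscle-type tropomyosin and Dse an enzyme of dermatan sulfate synthesis. Scarb1 lay nearest to Tmco4 (r = 0.986), the fat cell lipase gene Pnpla2 (r = 0.985) and Prrc2a (r = 0.984). Cd163 had the nearest genes 5730405O15Rik (r = 0.908), Slc8a1 (r = 0.903) and 1700021J08Rik (r = 0.900).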

How the data were processed

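The authors extracted tumor RNA with TRIzol, prepared stranded mRNA libraries and aligned reads to mm10 with the annotation GRCm38.101. The submitters' processing notes list STAR 2.7.5a, RSEM 1.3.3 and DESeq2 1.28.0. The authors deposited FPKM values per gene, and 4 tables of their DESeq2 comparisons (fold changes and p-values), which were not used here. Every per-sample column was matched to its sample by name, with 0 left over.

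Each deposited FPKM value was divided by its library's sum to give TPM. Tests used log2(TPM + 1), which understates changes of low genes, in the 15504 genes that reached a TPM of 1 in 3 or more libraries. limma 3.58.1 (eBayes with trend, two-sided, R 4.3.3) was fitted to 12 libraries in 4 groups, with 8 residual degrees of freedom. The code was run on simulated data without library sets, in which no gene varied more than the median gene. That run cannot show how the fit treats the more variable members. The 1.5-fold threshold was taken from the study. Adjusted p-values are Benjamini-Hochberg values over all tested genes.

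The members and gene lists were chosen with earlier results of these data known. All members were named, list genes where called or among the 2 most abundant of a list with none called, and the 3 genes nearest each tested member. The fit to lower-sum libraries was added after seeing the data. The number of libraries limits the precision. Depth was compared between libraries from the value steps, whose absolute size is approximate, so no counting intervals are given. No pair of libraries was identical. Values of some list genes are not reported here.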

Additional observations from a re-analysis of the deposited data

How the results depend on the processing

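Of the 6 counts of called members, those of the comparisons without aCSF1R stayed at 0 under every alternative, and leaving out each library gave 2 to 2 in the aCSF1R comparisons and 0 to 0 in the others. Fitting only the 2 groups compared, which leaves fewer libraries for the spread, lowered the count to 1 (Msr1) for aCSF1R against control, 0 for BF10 against aCSF1R and 1 (Msr1) for IL-10-Fc against aCSF1R. With the replicate number as a block these counts were 0, 0 and 0. Of the 7 numbers 4 occur in 1 group and 1 library only, so these libraries add nothing to that fit. The labels do not say whether a shared number links libraries. Deviations of same-numbered libraries correlated at -0.66 to 0.42, positive only where both were in the same library set. Because they follow the sets, these correlations cannot tell whether such a link exists.

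The number of called genes among all tested, 88, 114 and 84 in these 3 comparisons, was 4, 0 and 12 with the 2 groups alone, 0, 1 and 1 under the block, 312, 437 and 330 with the set term and 34, 155 and 68 in the lower-sum libraries. It was 135 for aCSF1R against control after scaling by the median of ratios.

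In the comparisons without aCSF1R, these signs turned, none of them of a called change. Under the block the value was -0.13 for Msr1, -0.28 for Cd36 and 0.32 for Cd163 in BF10 against control, -0.23 for Cd36 in IL-10-Fc against control, and -0.043 for Cd36 in BF10 against IL-10-Fc. Scaling by the median of ratios gave -0.37 for Msr1 and -0.13 for Stab1 in BF10 against control, -0.20 for Cd36, -0.19 for Stab1 and -0.011 for Scarb1 in IL-10-Fc against control, and 0.013 for Mrc1 and 0.0614 for Stab1 in BF10 against IL-10-Fc. FPKM without rescaling gave -0.19 for Msr1 in BF10 against control and 0.0242 for Stab1 in BF10 against IL-10-Fc. The set term gave -0.22 for Stab1 against control in both BF10 and IL-10-Fc. The lower-sum libraries alone gave -0.22 for Stab1 in IL-10-Fc against control, and 0.35 for Stab1 and 0.24 for Colec12 in BF10 against IL-10-Fc. Within the higher-sum libraries the value was -0.46 for Stab1 in BF10 against control and -0.22 for Cd36 in IL-10-Fc against control. Each of these 2 values rests on 1 treated and 2 control libraries. The causes were not tested.

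Leaving out single libraries, the changes of BF10 against control ran from -0.13 to 0.15 (Msr1), -0.48 to 0.48 (Cd163) and -0.35 to 0.74 (Stab1). Those of IL-10-Fc against control ran from -0.15 to 0.67 (Cd36) and -0.0086 to 0.55 (Stab1). Those of BF10 against IL-10-Fc ran from -0.15 to 0.039 (Mrc1), -0.59 to 0.50 (Stab1), -0.077 to 0.41 (Scarb1) and -0.73 to 0.39 (Colec12). Changes of Cd36, Cd163, Scarb1 and Colec12 in the aCSF1R comparisons, none of them called, also turned under some settings. In aCSF1R against control, values without aCSF1R replicate 8 were 0.45 for Cd36, 0.0095 for Cd163 and 1.01 for Colec12, and Colec12 was -0.45 without aCSF1R replicate 4. Under the block Cd163 was 0.74 there, and against aCSF1R the BF10 values were -0.42 for Cd163, -0.46 for Scarb1 and -0.11 for Colec12. Scaling by the median of ratios lowered the median of all genes by 0.21 to 0.36 against control. Under the block that median was 0.93, 0.62 and 0.53 in aCSF1R, BF10 and IL-10-Fc against control. It was -0.34 in BF10 against aCSF1R under the block, so signs that turned there include a shift of all genes.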

Other observations

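Beside the macrophage list, 1 of 5 monocyte markers was called. Ccr2, the chemokine receptor with which monocytes enter tissue, measured 72.4 ± 15.6 TPM in control and 11.3 ± 2.29 TPM in aCSF1R tumors (SD, n = 3), a log2 change of -2.57 (SE 0.27), and was called higher against aCSF1R in BF10 (log2 2.44) and in IL-10-Fc tumors (log2 2.01). Of the neutrophil, dendritic cell, adipocyte, endothelial, lymphatic endothelial, fibroblast and epithelial tumor lists limma called 0 genes in the 3 aCSF1R comparisons, with 0 at an unadjusted p below 0.05. Of all 15504 tested genes 537 passed the unadjusted limit in aCSF1R against control, and 661 and 552 in BF10 and IL-10-Fc against aCSF1R.

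The neutrophil markers summed to 16498 TPM in BF10 replicate 3 and to 429 to 3346 TPM in the other libraries. The same library held the highest Stab1 and Colec12 levels. Without it the changes of BF10 against control were -0.35 for Stab1 and 0.56 for Colec12.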
